A study of Homo sapiens with 18 samples.

Results

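The genes described here are the replication-dependent histone genes, taken as every gene symbol that begins with HIST1H, HIST2H, HIST3H or HIST4H. The rule found 73 of the 23686 gene symbols measured: 6 of class H1, 18 of H2A, 20 of H2B, 14 of H3 and 15 of H4. By the number in the symbol, 56 belonged to cluster 1, 13 to cluster 2, 3 to cluster 3 and 1 to cluster 4. RNA was sequenced from OCI-Ly1 and TMD8, established lines of human diffuse large B-cell lymphoma of the germinal-centre and activated B-cell kinds, respectively. Cells of each line received vehicle (0.01% DMSO) or the compound JIB-04 at 150 nM or at 500 nM, and each of the 6 groups had 3 libraries. JIB-04 is a small molecule that inhibits histone demethylases of the Jumonji family. The labels call the libraries technical triplicates, give no treatment time and name no separate cultures, so p-values measure only the spread between these libraries. The lines grew in different media, so line and medium cannot be told apart.

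Replication-dependent histones package newly made DNA, and cells make most of their RNA in S phase. The core histones H2A, H2B, H3 and H4 form the nucleosome and the linker histone H1 binds the DNA between nucleosomes. These genes lie in clusters, usually lack introns, and give RNAs that end in a conserved stem-loop in place of a poly(A) tail. The stem-loop is bound by SLBP, and U7 snRNP directs the cut just after it. The RNA here was depleted of ribosomal RNA rather than selected for poly(A) tails, per the labels' protocols, so RNAs without a tail could be counted. In bulk libraries, fewer cells in S phase and less histone RNA per cell in S phase cannot be told apart.

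The OCI-Ly1 libraries held 17579732 to 32651115 estimated counts each, the TMD8 libraries 9550092 to 20509500. All 6 B-cell markers were above 1 TPM in every library of both lines, and 4 germinal-centre markers summed to 164 to 202 TPM in OCI-Ly1 and 16.5 to 40.4 in TMD8. Of these, BCL6, MME and MYBL1 were higher in OCI-Ly1 with DMSO, but LMO2 was lower there, by a log2 difference of -11.5. The 4 activated B-cell markers summed to 114 to 223 TPM in OCI-Ly1 and 319 to 777 in TMD8. Of 4 T-cell markers tested in OCI-Ly1, 3 fell at 500 nM (median -1.26), where 25.9% of all genes tested fell. The 4 T-cell markers summed to 11.9 to 28.9 TPM over the OCI-Ly1 libraries, against 1.05 to 1.82 in TMD8. Their part in the histone values was not tested. The summed level of 4 myeloid markers stayed between 0.230 and 0.611 TPM in all libraries, that of 4 epithelial or stromal markers between 0.433 and 4.96 TPM. Of the 73 genes, 64 passed the filter on low counts in OCI-Ly1 and 63 in TMD8, and 61 passed in both. The 9 that did not pass in OCI-Ly1 had at most 17 counts in any library there, and the 10 in TMD8 at most 11. HIST2H2AA3 and HIST2H2AA4, HIST2H3A and HIST2H3C, and HIST2H4A and HIST2H4B had equal counts in all 18 libraries, so each of these 3 pairs carries a single measurement printed under both names.

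The stem-loop that defines this RNA class is shown first, because it is the shared feature on which the processing of these RNAs turns. The annotated transcripts (GENCODE 29) were searched for GG, a pair of pyrimidines and CT, then a loop of 4 bases that starts with TT, then the reverse complement of the stem. A stem-loop was found in 30 of the 73 genes, and in 29 of the 33 whose annotated transcript runs at least 60 bases past the coding part. Across all 57133 annotated genes, 37 held one (0.0648%), and the 7 that are not members include H2AFX, a histone variant, and HIST3H2BA, which is not analysed here. The 4 forms found are given 5′ to 3′ with the loop in capitals.

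H2A, H2B and H3 form (17 genes): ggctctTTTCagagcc

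H2B and H3 form (5 genes): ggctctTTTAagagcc

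First H4 form (5 genes): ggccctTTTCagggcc

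Second H4 form (3 genes): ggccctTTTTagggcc

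The forms followed the class: both stems of ggccct belonged to H4 genes alone among the members with a match, and the ggctct stems to H2A, H2B and H3. No match says only that these letters were not in the annotated transcript, and most of the models without a match do not run 60 bases past the coding part.

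The members also share promoter letters. RefSeq promoter windows (250 bases before and 50 after the start, GRCh38.p14) were matched by symbol and by the start site nearest to the gene's own annotated start codon (at most 250 bases away) for 65 of the 73 genes, each with a window of its own, and were searched on both strands for the octamer ATTTGCAT, the TATA box TATAAA and CCAAT. The octamer, a motif known from H2B promoters, was in 14 of 18 H2B windows and 11 of 16 H2A windows, and in none of the 6 H1, 12 H3 or 13 H4 windows, against 1.77% of 35116 promoter windows. The windows of 11 H2A genes overlap that of an H2B gene, 8 of the 11 with the octamer among them, so these letters can be shared by a pair. TATAAA was in 66.2% of the members' windows (11.5% of all promoters) and CCAAT in 84.6% (34.6%). CCAAT was in every H1, H2A, H2B and H3 window matched, but in 3 of 13 of H4. The 150 bases before the start are printed for 5 genes on which later results turn: HIST1H2BM, HIST2H2BF and HIST1H1B, which fell far in both lines, HIST4H4, which fell in one line, and HIST1H1T, which rose. The printed stretches are, on GRCh38.p14, HIST1H2BM at chr6:27814872-27815021 on the plus strand, HIST2H2BF at chr1:149812371-149812520 on the minus strand, HIST1H1B at chr6:27867589-27867738 on the minus strand, HIST4H4 at chr12:14771132-14771281 on the minus strand and HIST1H1T at chr6:26108136-26108285 on the minus strand. Sequences run 5′ to 3′ along the gene, with matches on either strand in capitals.

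HIST1H2BM: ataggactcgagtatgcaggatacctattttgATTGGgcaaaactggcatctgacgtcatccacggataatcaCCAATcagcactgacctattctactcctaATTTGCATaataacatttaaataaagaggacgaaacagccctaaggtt

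HIST2H2BF: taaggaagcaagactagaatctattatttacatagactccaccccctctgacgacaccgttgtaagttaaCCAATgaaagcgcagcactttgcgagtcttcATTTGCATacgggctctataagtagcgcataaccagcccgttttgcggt

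HIST1H1B: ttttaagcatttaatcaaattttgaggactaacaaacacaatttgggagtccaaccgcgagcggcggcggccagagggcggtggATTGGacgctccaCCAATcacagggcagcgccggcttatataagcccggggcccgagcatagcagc

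HIST4H4: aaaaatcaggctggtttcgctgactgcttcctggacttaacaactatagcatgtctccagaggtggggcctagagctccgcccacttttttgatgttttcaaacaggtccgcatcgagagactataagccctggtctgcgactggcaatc

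HIST1H1T: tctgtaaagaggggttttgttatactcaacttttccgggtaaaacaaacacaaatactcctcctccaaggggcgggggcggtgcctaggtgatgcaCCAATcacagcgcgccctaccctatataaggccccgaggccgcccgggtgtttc

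HIST1H2BM and HIST2H2BF carry the octamer together with a CCAAT box, HIST1H1B and HIST1H1T a CCAAT box without the octamer. In HIST4H4 none of the 3 motifs is in the printed 150 bases. TATAAA lies elsewhere in the searched windows of HIST4H4 and HIST1H2BM. A match is a description of letters and not evidence that a factor bound there.

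Histone RNA fell at 500 nM in both lines and in all 5 classes. Levels are CPM, counts scaled to library size with TMM factors within a line, given as mean ± SD of 3 libraries. Summed over the 73 genes, the OCI-Ly1 libraries held 33549.8, 32489 and 30252 CPM with DMSO, 29983, 28142 and 28069 at 150 nM, then 12106, 12555 and 11694 at 500 nM. The 500 nM libraries of OCI-Ly1 kept 37.8% of the DMSO mean, and those at 150 nM kept 89.5%. In TMD8 the sums were 15502, 14487 and 14308 CPM with DMSO, 9357, 8052 and 7543 at 150 nM, then 4601, 4486 and 4609.7 at 500 nM. TMD8 kept 56.3% at 150 nM and 30.9% at 500 nM. At each dose the 3 libraries lay below all 3 with DMSO, and a sum over chosen genes is given without a p.

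As a share of all counts, histone RNA went from 3.14 ± 0.178% with DMSO to 2.83 ± 0.124% and 1.26 ± 0.0415% in OCI-Ly1. In TMD8 it went from 1.42 ± 0.0348% to 0.845 ± 0.0851% and 0.467 ± 0.00826%. Per length, on the deposited TPM scale, these genes held 11.8 ± 0.47% of all transcripts in OCI-Ly1 with DMSO and 4.94 ± 0.212% at 500 nM. The same shares in TMD8 were 3.09 ± 0.331% and 0.71 ± 0.04%. These TPM shares were larger than the count shares of the same libraries.

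**Figure D1:**
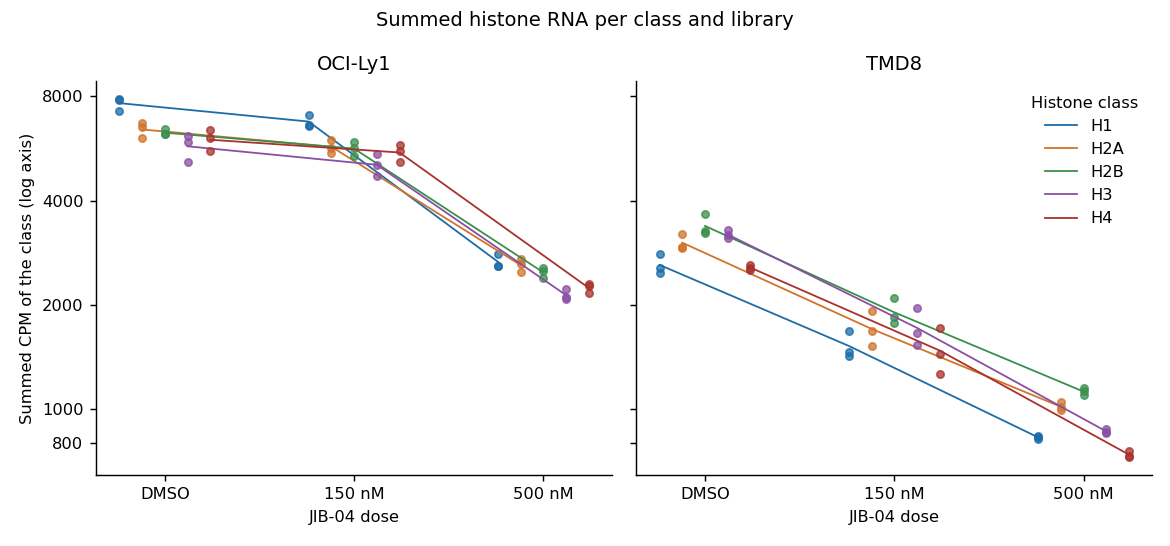
Summed CPM of each histone class (log axis) by JIB-04 dose, with 1 point a library and a line through the means of 3. In OCI-Ly1 the classes stayed near the DMSO level at 150 nM and dropped at 500 nM, while in TMD8 each class was lower at 150 nM and again at 500 nM.

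Gene by gene, 61 of the 64 tested genes fell at 500 nM in OCI-Ly1 and 2 rose, at an adjusted p under 0.05 in edgeR's quasi-likelihood test over all genes (a gene past this threshold is called changed). Over all 15638 genes tested in that comparison, 25.9% fell and 27.7% rose. In TMD8 59 of 63 fell and 2 rose at 500 nM, against 30.7% and 29.9% of all 15363 genes tested. The median log2 fold change of the histone genes was -1.34 in OCI-Ly1 and -1.67 in TMD8, where the median of all genes tested was -0.0033 and 0.04. The 61 OCI-Ly1 genes ranged from -2.10 (HIST1H4I) to -0.57 (HIST2H3D), and the 59 in TMD8 from -2.55 (HIST1H2BH) to -0.46 (HIST1H2BE). Counted without a test, 61 genes in OCI-Ly1 and 59 in TMD8 had every 500 nM library below every DMSO library. That count was made for the histone genes only, so it has no share of all genes to stand beside. Of the 61 genes tested in both lines, 57 fell and 2 rose in both. The share of all genes called alike in both lines was not counted.

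At 150 nM the lines differed. In OCI-Ly1 2 of 64 genes fell and 0 rose, against 0.141% and 0.748% of all genes tested, with a median of -0.18. The 2 were HIST1H1B, at -0.21 ± 0.05 (SE; adjusted p = 0.0454), and HIST1H2AL, at -0.29 ± 0.06 (adjusted p = 0.0138). At an unadjusted edgeR p under 0.05, 42 of 64 were lower and 0 higher, where 10.2% of all genes passed in either direction. DESeq2 called 11 lower and 0 higher, where 0.32% and 1.22% of all genes were called. The count also moved with single libraries: 0 were called lower without DMSO replicate 1, DMSO replicate 2 or 150 nM replicate 2, 9 without DMSO replicate 3, and 14 without 150 nM replicate 1, and 1 when any single one of the 500 nM libraries was left out. In TMD8 58 of 63 genes fell and 3 rose at 150 nM, against 25% and 19.2% of all genes tested, with a median of -0.79. From 150 to 500 nM another 61 of 64 genes fell in OCI-Ly1 (21.1% of all genes tested) and 58 of 63 in TMD8 (15%), while 3 (25.1%) and 1 (13.7%) rose. Of the change reached at 500 nM, the genes that fell had made a median of 12.3% by 150 nM in OCI-Ly1 and 46.7% in TMD8, on the log2 scale.

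The scaling moved the split of all calls more than that of the histone genes. Of all genes called at 500 nM, 51.6% were higher in OCI-Ly1 with TMM, 64.0% with library size alone and 71.9% with limma on log2(TPM + 1). In TMD8 the same shares were 49.4%, 59.4% and 18.8%. The 150 nM shares were 84.2%, 87.4% and 98.4% for OCI-Ly1. TMD8 gave 43.5%, 60.5% and 21.2% at that dose. On log2(TPM + 1) the median of all genes lay at -0.22 in TMD8 at 500 nM and that of the histone genes at -2.02. Under each of these scalings 61 histone genes fell in OCI-Ly1 at 500 nM and 58 to 60 in TMD8.

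**Figure D2:**
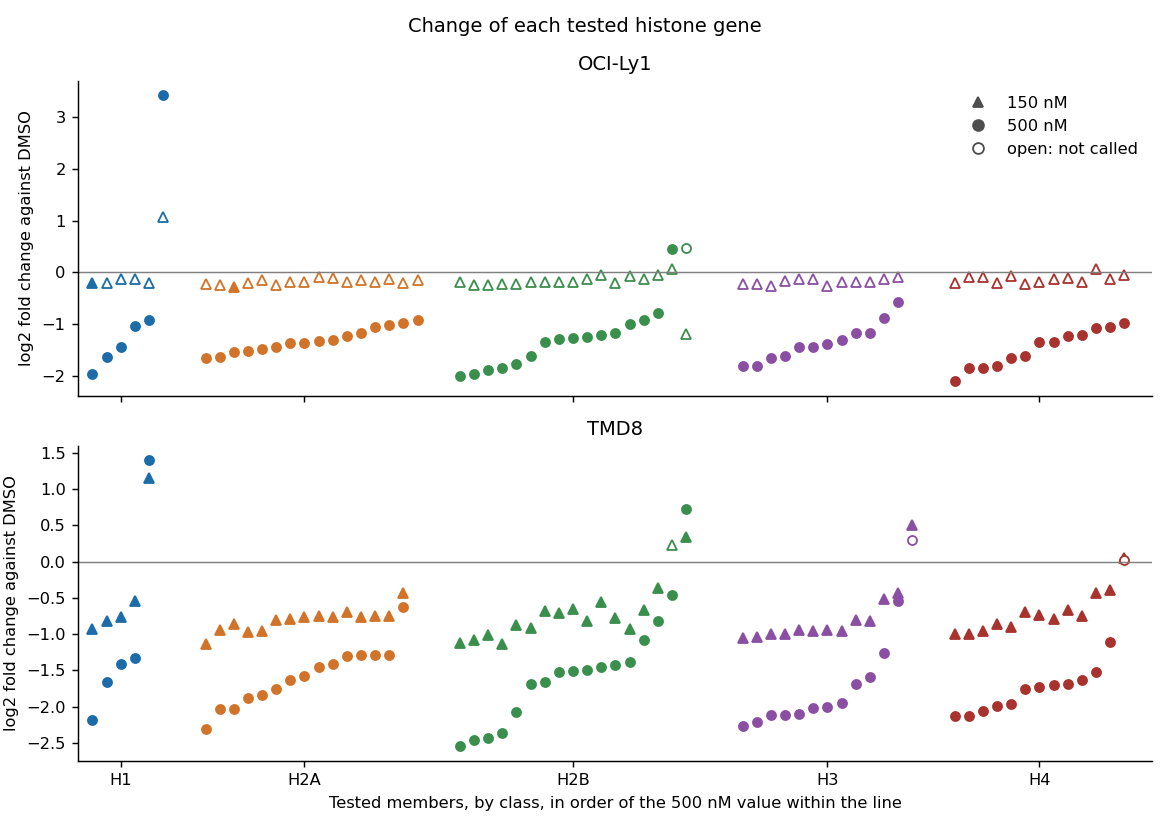
log2 fold change against DMSO of each tested histone gene, by class, at 150 nM (triangles) and 500 nM (circles); open symbols are not called. Most OCI-Ly1 triangles lie just under 0 and most circles between -2.10 and -0.57, while in TMD8 the triangles already lie near -0.79. The fitted value of HIST1H1T in OCI-Ly1 rests on 1 to 3 counts a library with DMSO.

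Among the linker histones under the symbol rule, every somatic gene tested fell at 500 nM. Of the H1 genes tested, 5 of 6 fell in OCI-Ly1 and 4 of 5 in TMD8, against 25.9% and 30.7% of all genes tested. The other in each line, HIST1H1T, was scarce and was called higher. The linker variants H1FX and H1F0 lie outside the rule and were called higher in both lines. H1F0 was near the counting floor in TMD8 with DMSO. In OCI-Ly1 the H1 sum was 7651 ± 329 CPM with DMSO and 2663 ± 122 at 500 nM, a log2 ratio of -1.52, and in TMD8 it was 2608 ± 175 and 828 ± 6.18, a ratio of -1.65. HIST1H1B, a somatic linker histone, had 2556, 2557 and 2319 CPM in OCI-Ly1 with DMSO, 2234, 2103 and 2090.1 at 150 nM, then 606, 669.7 and 627 at 500 nM. In TMD8 it had 1019, 921 and 901 CPM, then 571, 467 and 450.1, then 215, 200.5 and 211. The 3 dose groups of HIST1H1B did not overlap in either line. Its log2 fold change at 500 nM was -1.97 ± 0.05 (SE; adjusted p = 2.66e-15) in OCI-Ly1 and -2.18 ± 0.08 (adjusted p = 4.19e-13) in TMD8, the largest fall among the H1 genes in both. HIST1H1E, another somatic linker histone, fell least of the H1 genes called lower in TMD8, by 1.32 on the log2 scale, and fell by 1.02 in OCI-Ly1.

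HIST1H1C, which is known for RNAs with and without a poly(A) tail, changed by -1.63 ± 0.05 and -1.42 ± 0.06 at 500 nM in OCI-Ly1 and TMD8, and HIST1H1D by -1.44 ± 0.05 and -1.67 ± 0.08. With the 4 abundant H1 genes falling unequally, the leading H1 RNA changed: per length, HIST1H1C held 34.5% of the class in OCI-Ly1 with DMSO and HIST1H1E led at 500 nM with 33.4%. In TMD8 HIST1H1B led with DMSO (35.0%) and HIST1H1C at 500 nM (39.5%). HIST1H1A was present in OCI-Ly1, at 24.3, 23.8 and 23.2 CPM with DMSO and 13.6, 10.8 and 13.1 at 500 nM, a change of -0.92 ± 0.09. In TMD8 HIST1H1A had 1 to 11 counts a library and was not tested. H1 genes share few sequences (a median of 0.408% of 31-base words with another member), the least of the 5 classes.

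All tested H2A genes fell at 500 nM: 16 of 16 in OCI-Ly1 and 15 of 15 in TMD8, against 25.9% and 30.7% of all genes tested. The class sum went from 6421 ± 338 to 2605 ± 118 CPM in OCI-Ly1 (log2 ratio -1.30) and from 3023 ± 163 to 1015 ± 27.0 in TMD8 (-1.57). HIST1H2AE, the H2A gene with the highest mean TPM, had 1130.2, 1035 and 988 CPM in OCI-Ly1 with DMSO and 413, 442 and 400.3 at 500 nM. Its TMD8 values were 319, 278 and 273 CPM with DMSO, 182, 157 and 144 at 150 nM, then 72.7, 64.8 and 76.01 at 500 nM. Every 500 nM library of HIST1H2AE was below every DMSO library of its line, with changes of -1.33 ± 0.06 in OCI-Ly1 and -2.03 ± 0.08 in TMD8. HIST1H2AM changed by -1.22 ± 0.05 and -1.46 ± 0.07, and the indistinguishable HIST2H2AA3 and HIST2H2AA4 by -1.37 ± 0.05 and -1.28 ± 0.07. H2A changes spanned -1.65 to -0.92 in OCI-Ly1 and, in TMD8, -2.31 for HIST1H2AJ to -0.62 for HIST1H2AC. Copies are close in this class: 84.6% of the 31-base words of HIST1H2AJ also lie in HIST1H2AI, 87.1% of those of HIST1H2AM in HIST1H3J, and all those of HIST1H2AK in the overlapping HIST1H2BN. How reads were split between such copies was not tested.

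In H2B, HIST1H2BM fell far in both lines. It had 541, 506 and 540.2 CPM in OCI-Ly1 with DMSO, 464, 431 and 499 at 150 nM, then 137, 136 and 125 at 500 nM. TMD8 held 219.9, 208 and 193 CPM with DMSO, 109, 88.7 and 95.7 at 150 nM, then 38.0, 35.8 and 38.9 at 500 nM. The 3 dose groups did not overlap in either line, and the 500 nM change was -1.995 ± 0.06 (adjusted p = 1.53e-14) in OCI-Ly1 and -2.47 ± 0.07 (adjusted p = 1.01e-13) in TMD8. HIST2H2BF changed by -1.95 ± 0.06 and -2.44 ± 0.09, and HIST1H2BB by -1.87 ± 0.06 and -2.07 ± 0.09. Over the class, 15 of 17 tested genes fell and 1 rose in OCI-Ly1, against 25.9% and 27.7% of all genes tested. In TMD8 16 of 17 fell and 1 rose, against 30.7% and 29.9%. The class sum went from 6286 ± 123 to 2480.1 ± 83.9 CPM in OCI-Ly1 (log2 ratio -1.34) and from 3380.2 ± 246 to 1123 ± 28.1 in TMD8 (-1.59).

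HIST1H2BC, which led the class per length in OCI-Ly1, fell least there of the H2B genes called lower. It had 942, 842 and 872 CPM with DMSO and 509, 525 and 511 at 500 nM, a change of -0.78 ± 0.05, and its share of the summed H2B TPM went from 16.1% to 23.7%. In TMD8 the same gene had 262, 225 and 232 CPM with DMSO and 81.9, 79.7 and 89.5 at 500 nM, a change of -1.52 ± 0.07. HIST1H2BF changed by -0.999 ± 0.05 and -1.51 ± 0.06, and HIST1H2BJ by -1.62 ± 0.05 and -1.68 ± 0.07. The 12 tested H2B genes with an octamer in the promoter window had a median change of -1.30 in OCI-Ly1, and the 4 without one -1.26. For TMD8, 13 genes with the octamer had a median of -1.52 and 3 without -1.45. The ranges of genes with and without the octamer overlapped in both lines, and this difference was not tested.

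H3 fell furthest as a class in TMD8. Its sum there was 3297, 3172 and 3112 CPM with DMSO, 1954, 1663 and 1529 at 150 nM, then 874, 850.5 and 859.8 at 500 nM, a log2 ratio of -1.89 that left 27.0%. In OCI-Ly1 the H3 sum was 6159.6, 5898 and 5167 CPM with DMSO, 5441, 5063 and 4723 at 150 nM, then 2104, 2218 and 2076 at 500 nM, a ratio of -1.43. The DMSO and 150 nM libraries overlapped in OCI-Ly1 and those at 500 nM lay apart. HIST1H3B, the most abundant H3 gene per length, had 1651, 1725 and 1425 CPM in OCI-Ly1 with DMSO and 723, 738 and 678 at 500 nM. In TMD8 it went from 548, 542 and 540.3 CPM to 324, 269.8 and 248 and 137, 131 and 134. The groups at 500 nM and with DMSO did not overlap, and the changes of HIST1H3B were -1.17 ± 0.07 in OCI-Ly1 and -2.02 ± 0.07 in TMD8. HIST1H3H changed by -1.80 ± 0.07 and -1.96 ± 0.07, and the pair HIST2H3A and HIST2H3C by -1.44 ± 0.08 and -2.12 ± 0.09. All 12 tested H3 genes fell in OCI-Ly1, and 12 of 13 in TMD8, against 25.9% and 30.7% of all genes tested.

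H4, most of whose genes encode the same protein, fell in 13 of 13 tested genes in OCI-Ly1 and 12 of 13 in TMD8. The shares of all genes tested that fell were 25.9% and 30.7%. The class sum went from 5997 ± 419 CPM to 5509 ± 309 and 2238 ± 67.6 in OCI-Ly1 (log2 ratio at 500 nM -1.42). In TMD8 it went from 2561 ± 37.4 to 1475 ± 229.6 and 738 ± 17.4 (-1.79). As for H3, the OCI-Ly1 libraries at 150 nM overlapped those with DMSO. HIST1H4K, with the highest mean TPM of all 73 genes, had 1226, 1073 and 1059.9 CPM in OCI-Ly1 with DMSO and 441, 462 and 430.0 at 500 nM. The levels in TMD8 were 655, 724 and 711 CPM with DMSO, 439, 356 and 325 at 150 nM, then 183, 171 and 182 at 500 nM. The changes of HIST1H4K were -1.33 ± 0.06 and -1.96 ± 0.08, without overlap between 500 nM and DMSO. All 31-base words of its annotated transcript also lie in HIST1H4J, which was listed at 0 in every library but 1, with 15 counts there, so HIST1H4K may hold reads of both. HIST1H4I, with the largest fall in OCI-Ly1 and named after its values were seen, had 177, 173 and 181 CPM with DMSO and 42.4, 44.1 and 37.3 at 500 nM there, a change of -2.10 ± 0.07, and changed by -1.74 ± 0.10 in TMD8. HIST1H4H changed by -1.35 ± 0.07 and -1.70 ± 0.11, HIST1H4D by -1.65 ± 0.06 and -1.52 ± 0.08, and the pair HIST2H4A and HIST2H4B by -1.85 ± 0.07 and -2.13 ± 0.09.

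By cluster, the large cluster 1 and the smaller cluster 2 had similar counts and medians. Cluster 1 fell in 47 of 49 tested genes in OCI-Ly1 (median -1.33) and 48 of 50 in TMD8 (-1.68), and cluster 2 in 11 of 12 in both (-1.37 and -1.62). Among all genes tested, 25.9% fell in OCI-Ly1 and 30.7% in TMD8. In OCI-Ly1, HIST3H2BB of cluster 3 had 32.4, 29.3 and 28.4 CPM with DMSO and 15.3, 17.9 and 14.8 at 500 nM, a change of -0.92 ± 0.09, and the less abundant HIST3H2A changed by -1.17 ± 0.24. Both fell. In TMD8 HIST3H2BB had 0 counts in all 9 libraries, and OCI-Ly1 with DMSO was at least 494-fold higher, with a floor of 3 counts over the TMD8 group. HIST3H2A had 0 to 6 counts a library in TMD8. The other tested cluster 2 genes, HIST2H2AB, HIST2H2AC and HIST2H2BE, changed by -1.30 ± 0.06, -0.92 ± 0.06 and -1.21 ± 0.05 in OCI-Ly1, and by -1.64 ± 0.10, -1.41 ± 0.09 and -1.08 ± 0.06 in TMD8.

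A few genes went against the rest. HIST1H1T encodes the linker histone known from testis, and was scarce. In OCI-Ly1 its libraries held 1, 1 and 3 counts with DMSO, 6, 2 and 3 at 150 nM, then 24, 25 and 26 at 500 nM. The 500 nM libraries stood apart from the others, and the ratio of summed scaled counts at 500 nM to DMSO was 11.2 (95% exact interval 4.59 to 35.5, counting error only). Only its 500 nM libraries carried the gene past the low-count filter there, so its call is no separate support for the rise. In TMD8 the counts were 9, 4 and 4 with DMSO, 9, 10 and 16 at 150 nM, then 15, 14 and 4 at 500 nM. The 500 nM and DMSO groups overlapped in CPM, and only treated libraries carried the gene past the filter in TMD8. Its change of 1.397 ± 0.44 was called by edgeR. It was not called by DESeq2 or without DMSO replicate 3, 500 nM replicate 1 or 500 nM replicate 2. With this gene at its ratio, the OCI-Ly1 median at 500 nM stayed at -1.34.

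HIST2H2BC is annotated as a pseudogene of H2B, and 42.0% of its 31-base words also lie in annotated genes outside the members. It had 11.3, 11.3 and 11.2 CPM in OCI-Ly1 with DMSO, 12.1, 12.3 and 10.7 at 150 nM, then 17.1, 15.3 and 13.8 at 500 nM. In TMD8 the gene had 20.4, 18.7 and 19.3 CPM, then 21.1, 23.1 and 28.8, then 31.04, 33.6 and 31.5. At 500 nM every library was above every DMSO library in both lines, and HIST2H2BC rose by 0.45 ± 0.10 (adjusted p = 0.00115) and 0.72 ± 0.09 (adjusted p = 3.15e-06). The difference of its 500 nM change between lines was -0.24 ± 0.14 (adjusted p = 0.168). Its annotated start lies 124 bases from that of HIST2H2AA4, which is transcribed the other way and fell in both lines.

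HIST4H4, the single gene of cluster 4, was called lower in OCI-Ly1 and not called in TMD8. In OCI-Ly1 it had 237, 232 and 216 CPM with DMSO, 217, 201 and 176 at 150 nM, then 69.8, 63.4 and 62.8 at 500 nM, a change of -1.80 ± 0.07 (adjusted p = 7.63e-13). In TMD8 its values were 28.3, 35.0 and 33.9 CPM, then 34.2, 34.2 and 32.9, then 31.5, 35.2 and 32.5. The TMD8 groups overlapped, with a change of 0.03 ± 0.08 (adjusted p = 0.792) that turns to -0.33 (adjusted p = 0.00779) on log2(TPM + 1). The difference between lines at 500 nM was -1.80 ± 0.11 (adjusted p = 1.64e-12), the most negative among the histone genes called. HIST1H3E in TMD8 had 3.24, 3.59 and 4.18 CPM with DMSO, 4.79, 5.80 and 5.16 at 150 nM, then 4.94, 4.56 and 3.99 at 500 nM, and was called higher at 150 nM (0.51 ± 0.16) but not at 500 nM (0.30 ± 0.16). HIST1H2BE, with 2 to 29 counts a library, was the gene not called at 500 nM in OCI-Ly1 (0.48 ± 0.48). HIST1H3E and HIST1H2BE were named after their values were seen.

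**Figure D3:**
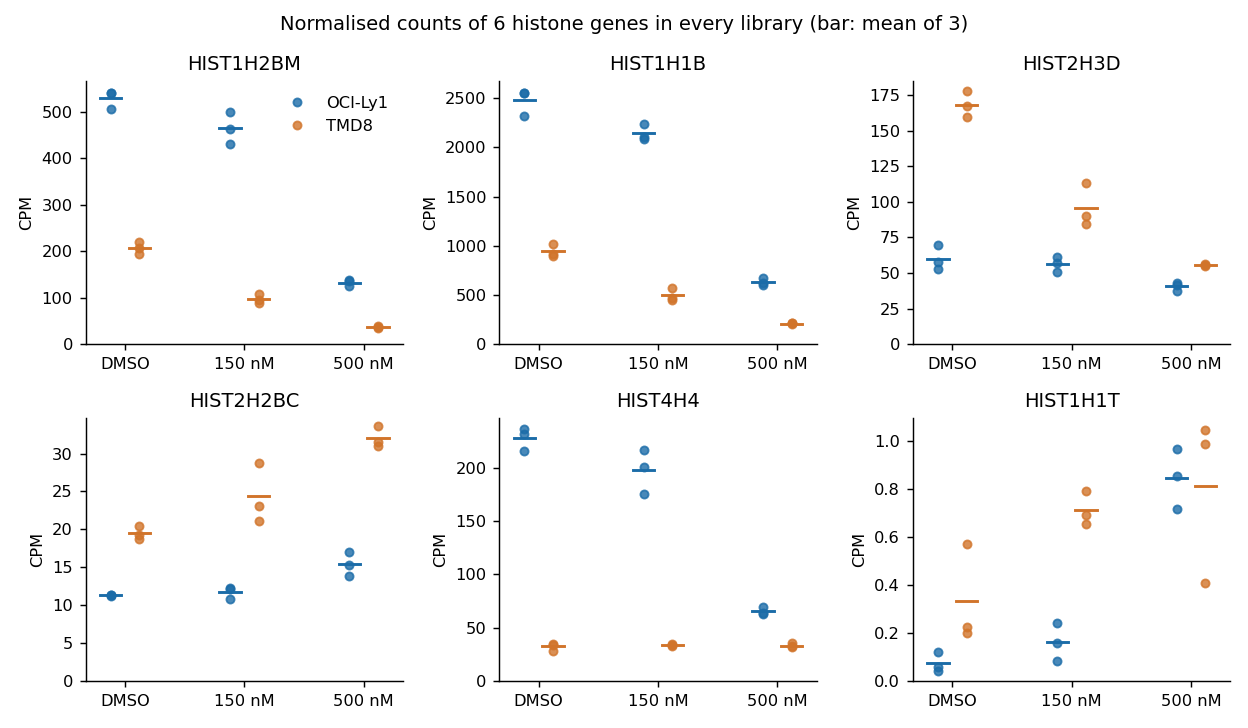
CPM in every library (points) and group means (bars) of 6 genes by dose; vertical axes start at 0 and differ between panels. HIST1H2BM and HIST1H1B fell in both lines, HIST2H3D fell further in TMD8, HIST2H2BC rose in both, HIST4H4 fell in OCI-Ly1 alone on this scale, and HIST1H1T stayed near or under 1 CPM.

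The change itself differed between the lines. At 150 nM the difference, OCI-Ly1 minus TMD8, was called positive for 56 of 66 tested genes and negative for 0, against 15% and 8.33% of all 16604 genes tested. At 500 nM the difference was called positive for 38 genes and negative for 6, against 28.2% and 18.1% of all genes tested. Without OCI-Ly1 DMSO replicate 1 the negative count was 3. The median difference was 0.63 at 150 nM and 0.28 at 500 nM. On log2(TPM + 1), where the median of all genes was shifted by 0.38 at 500 nM, the members' median was 0.75. HIST2H3D, an H3 gene of cluster 2, had 69.6, 57.6 and 53.1 CPM in OCI-Ly1 with DMSO and 41.7, 42.8 and 37.4 at 500 nM, and 167, 178 and 159.8 and 56.5, 55.8 and 54.7 in TMD8. It fell in both, with a difference of 1.05 ± 0.14 (adjusted p = 6.8e-07), and 83.5% of its 31-base words also lie in another annotated gene. HIST1H2BD and HIST1H2AC fell further in OCI-Ly1, by differences of -0.44 ± 0.08 and -0.36 ± 0.08, but on log2(TPM + 1) these became 0.11 and 0.11, neither called.

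HIST1H2BH, an H2B gene, was near the counting floor in one line. In OCI-Ly1 it had 7, 7 and 12 counts with DMSO and 10, 4 and 17 at 500 nM, and was not tested within that line. The TMD8 libraries had 260.5, 218 and 224 CPM with DMSO, 122, 101 and 99.2 at 150 nM, then 39.9, 38.9 and 41.2 at 500 nM, a change of -2.55 ± 0.08 and the largest fall in TMD8. Its line difference of 2.42 ± 0.49 (adjusted p = 0.000216) sets a fall in TMD8 against 4 to 17 counts a library in OCI-Ly1. Over the 58 genes tested in both lines, with indistinguishable copies counted once, the 500 nM changes had a Pearson correlation of 0.761 and a Spearman correlation of 0.580 between lines, and 0.557 and 0.568 over the 54 that fell in both. These are descriptions across genes of 2 lines, and the genes share clusters and near-identical sequence. Of the 61 genes tested in both, 47 had the lower value in TMD8, a count that was not made over all genes.

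**Figure D4:**
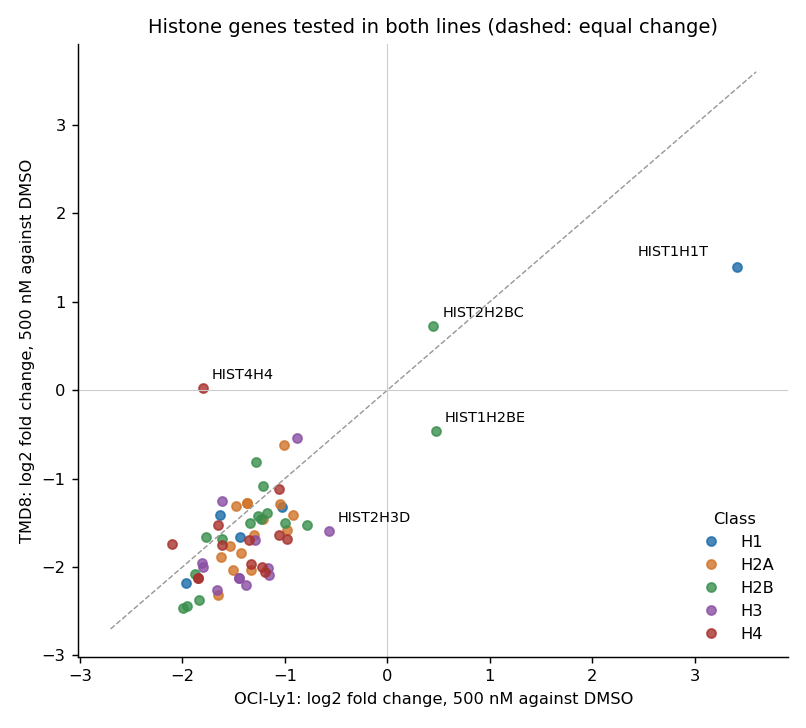
log2 fold change at 500 nM against DMSO in OCI-Ly1 (horizontal) and TMD8 (vertical) for the 61 genes tested in both, coloured by class; the dashed line marks equal change. Most points lie in the lower left under the line, and 5 genes that stand apart are named. HIST1H1T is drawn at its fitted value.

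With DMSO alone, histone RNA was higher in OCI-Ly1. Of 66 genes tested, 48 were higher in OCI-Ly1 and 15 higher in TMD8, against 37.8% and 39% of all genes tested. The median log2 difference was 0.90, with -0.02 over all genes. On log2(TPM + 1) the medians were 1.85 and 0.61, and the share of all calls higher in OCI-Ly1 went from 49.2% to 79.5%. Per length, HIST1H4K led both lines, at 7084 ± 552 TPM in OCI-Ly1 and 2472 ± 74.7 in TMD8. HIST1H3B followed in OCI-Ly1 with 6337 ± 490.1 TPM and had 1210.3 ± 96.9 in TMD8. HIST1H2BK went the other way, with 311, 307 and 293 CPM in OCI-Ly1 and 791, 664 and 687 in TMD8, a difference of -1.36 ± 0.07. The H3 class was split, with 6 genes higher in OCI-Ly1 and 7 in TMD8.

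The make-up of the histone RNA moved by under 3 percentage points in each class. In OCI-Ly1, H1 went from 23.8 ± 0.343% of the summed histone counts with DMSO to 22.0 ± 0.458% at 500 nM, and H2A from 20.0 ± 0.0286% to 21.5 ± 0.234%. H2B, H3 and H4 each moved by less than 1 percentage point there. In TMD8, H3 went from 21.6 ± 0.332% to 20.6 ± 0.306% at 150 nM and 18.9 ± 0.189% at 500 nM, without overlap between doses. H2A went from 20.5 ± 0.218% to 22.2 ± 0.364% and H2B from 22.9 ± 0.712% to 24.6 ± 0.313% in that line. H4 went from 17.4 ± 0.919% to 16.2 ± 0.36%, and its DMSO and 500 nM libraries overlapped. Shares add up to a whole, so they do not move independently.

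Neighbours and RNA type were also compared. The annotation holds 13 pairs of members with starts within 1000 bases that are transcribed in opposite directions, 12 of them H2A with H2B. In the 12 pairs tested in OCI-Ly1 the 500 nM changes of the partners differed by a median of 0.24 (0.06 to 1.82) on the log2 scale, and in 11 pairs in TMD8 by 0.39 (0.04 to 2.003). HIST1H2AJ and HIST1H2BM, 304 bases apart, changed by -1.65 and -1.995 in OCI-Ly1 and by -2.31 and -2.47 in TMD8. The widest gap in both lines was between HIST2H2BC and HIST2H2AA4. The 7 genes known to give polyadenylated RNA as well (HIST1H1C, HIST1H2AC, HIST1H2BC, HIST1H2BD, HIST1H2BJ, HIST1H2BK and HIST2H2BE) all fell at 500 nM in both lines. Of all genes tested, 25.9% fell in OCI-Ly1 and 30.7% in TMD8. The 7 genes had medians of -1.21 in OCI-Ly1 and -1.39 in TMD8, beside -1.34 and -1.67 over all histone genes tested. HIST1H2BK changed by -1.17 ± 0.06 and -1.39 ± 0.07. Whether the counts of these genes came from tailed or untailed RNA was not measured.

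Genes that make and handle histone RNA had medians near 0. Beside the counts of these lists stand the shares of all genes tested at 500 nM, of which 27.7% rose and 25.9% fell in OCI-Ly1, while in TMD8 29.9% rose and 30.7% fell. Of 27 listed genes for histone transcription and RNA processing, 25 were tested, of which 6 rose and 11 fell at 500 nM in OCI-Ly1 and 1 rose and 11 fell in TMD8, with medians of -0.06 and -0.11. SLBP, the stem-loop binding protein, had 207 ± 11.5 CPM in OCI-Ly1 with DMSO and 188 ± 5.08 at 500 nM, a change of -0.14 ± 0.06, and changed by -0.40 ± 0.07 in TMD8. NPAT, the coactivator of histone transcription, changed by 0.16 ± 0.07 and -0.08 ± 0.07, CASP8AP2, its partner at the histone locus body, by 0.12 ± 0.06 and 0.07 ± 0.06, and LSM11 of the U7 snRNP by -0.06 ± 0.08 and -0.11 ± 0.09, none of them called. CCNE2, a cyclin of S-phase entry, rose by 0.52 ± 0.07 and 1.004 ± 0.07. ERI1, an exonuclease that trims the stem-loop end, was not called in either line (-0.25 ± 0.36 and -0.12 ± 0.06). POU2F1, a factor known to bind the octamer, was called lower in OCI-Ly1 (-0.67 ± 0.07) and was at -0.02 ± 0.05 in TMD8, and was named after its values were seen.

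Histone chaperones and S-phase genes were counted in the same way, and the difference between the lines was not tested for the lists. Of 21 genes for histone chaperones, import and acetylation, 2 rose and 7 fell at 500 nM in OCI-Ly1 (median -0.03), where 25.9% of all genes fell, and 2 rose and 15 fell in TMD8 (-0.41), where 30.7% fell. NASP, a chaperone of H3 and H4, fell in both, by 0.65 and 0.58 on the log2 scale, and HAT1, which acetylates new H4, fell in TMD8 (-0.54 ± 0.06) and was not called in OCI-Ly1 (-0.09 ± 0.06). CHAF1A and CHAF1B, subunits of the CAF-1 chaperone, were called in neither line, nor was ASF1B at 500 nM. Of 43 S-phase replication genes, 14 rose and 11 fell in OCI-Ly1 (median 0.06; 27.7% and 25.9% of all genes), and 5 rose and 29 fell in TMD8 (-0.31; 29.9% and 30.7%). PCNA, the replication clamp, had 547 ± 37.2 and 580.4 ± 26.4 CPM in OCI-Ly1 with DMSO and at 500 nM and was not called there, and rose by 0.25 ± 0.06 in TMD8. MCM2 of the replicative helicase was at -0.004 ± 0.05 in OCI-Ly1, not called, and fell by 0.60 in TMD8. CDC6 and E2F1 rose in OCI-Ly1 (0.15 ± 0.05 and 0.29 ± 0.06) and were not called in TMD8. CCNA2, the cyclin of S and G2 phase, fell in both, at -0.50 ± 0.07 and -1.30 ± 0.07. The part of cell-cycle shares in the histone values was not tested.

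Histone variants listed as replication-independent moved in both directions. The list includes H2AFX, in which a stem-loop match was found. Of 13 listed, 12 were tested in OCI-Ly1 (3 rose and 5 fell at 500 nM, median -0.19) and 10 in TMD8 (3 rose and 6 fell, -0.27), against 27.7% higher and 25.9% lower of all genes in the first line and 29.9% and 30.7% in the second. H2AFZ, which encodes H2A.Z, fell by 0.34 and 0.69 on the log2 scale, H3F3B of the replacement H3 was at 0.11 ± 0.04 (called higher) and -0.21 ± 0.05 (called lower), and H2AFX fell in TMD8 (-0.33 ± 0.05, against -0.15 ± 0.09 in OCI-Ly1). H3F3A was called in neither line. CENPA had the largest fall of the list in both lines, at -0.64 ± 0.08 in OCI-Ly1 and -1.89 ± 0.10 in TMD8. It was named after its values were seen. The linker variants rose: H1FX had 39.4 ± 1.26 CPM with DMSO and 58.0 ± 3.89 at 500 nM in OCI-Ly1, while TMD8 had 21.3 ± 2.07 and 39.2 ± 1.04, changes of 0.56 ± 0.06 and 0.87 ± 0.08. H1F0, known from cells that stop dividing, was low, at 0.505 ± 0.169 and 1.70 ± 0.453 CPM with DMSO and at 500 nM in OCI-Ly1, against 0.0335 ± 0.0581 and 0.836 ± 0.194 for TMD8. It was called higher in each line, but in TMD8 only treated libraries carried it past the low-count filter. The TMD8 call is therefore no separate support for a rise.

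**Figure D5:**
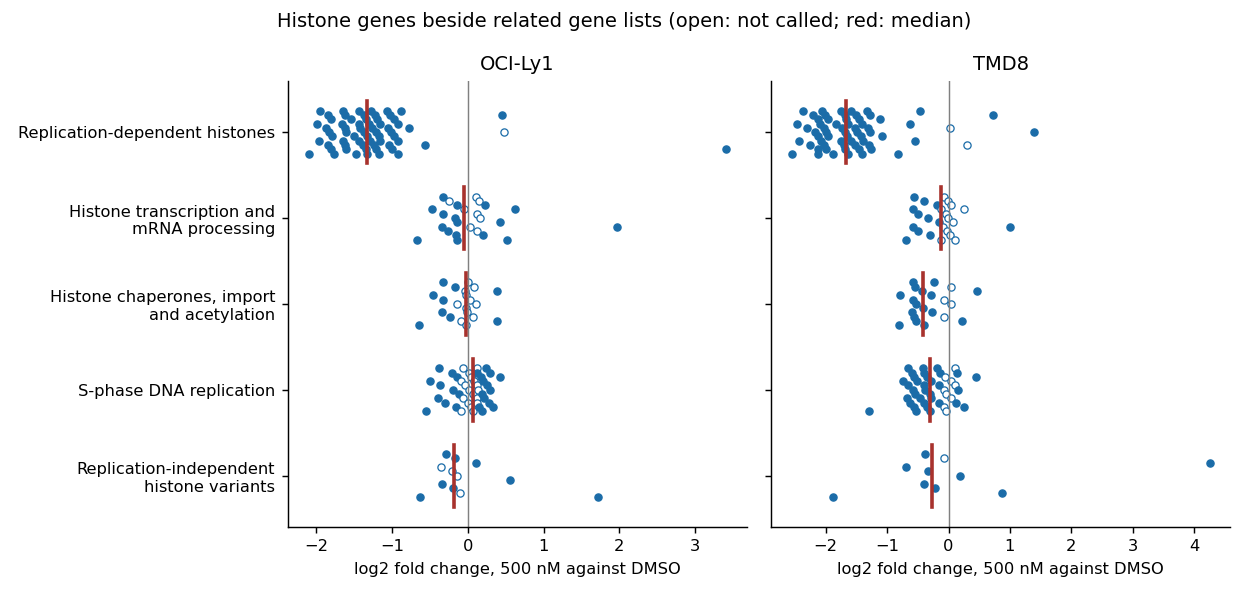
log2 fold change at 500 nM against DMSO of every tested gene in 5 groups (filled points are called, red bars are medians). The replication-dependent histone genes sit mostly under -0.5 in both lines, and the medians of the other lists lie between -0.41 and 0.06; MCM2 and SLBP are each in more than 1 list.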

How the data were processed

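RNA from 18 libraries was measured: OCI-Ly1 and TMD8 with 0.01% DMSO, 150 nM or 500 nM JIB-04, 3 technical libraries in each of 6 groups. The deposited tables hold estimated counts per gene and TPM per gene; per the submitters' processing notes the authors used kallisto 0.46.0, DESeq2 1.40.2, R 4.3.1 and build hg19. The transcript index and the step from transcripts to genes were not given in the sources used here. The authors' estimated counts were rounded to whole numbers where not whole. They were tested with edgeR 4.0.16 in R 4.3.3 (quasi-likelihood test, TMM scaling, low-count filter by group, Benjamini-Hochberg over all genes, threshold 0.05), in 1 fit of 9 libraries for each line and 1 fit of 18 for differences between lines. The authors' TPM values were tested as log2(TPM + 1) and log2(TPM + 0.1) with limma 3.58.1, and the counts with DESeq2 1.42.0, as alternatives. Fold changes are log2 with SE. Interval and floor (3 counts) cover counting error only. Annotation came from GENCODE 29 and RefSeq, both of GRCh38, so gene positions on the authors' build are not given. Scripts were tested on simulated data.

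The members and lists were chosen with earlier results of these data known. Named genes are the tested H1 genes, the 3 highest by mean TPM in each core class, the 6 largest falls called in both lines, genes called higher, the 3 largest line differences each way, tested genes of clusters 2 to 4, the polyadenylated list, and set genes of the comparison lists. Ends of ranges and genes said so were named after their values were seen. Of 13 variant genes and 27 transcription and processing genes, those that passed the filter were tested.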

Additional observations from a re-analysis of the deposited data

Results flagged for a closer look

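Several results stand out because the change differed between the lines in the test of that difference (edgeR, 18 libraries, OCI-Ly1 minus TMD8). At 150 nM the difference was called positive for 56 of 66 histone genes and negative for 0, against 15% and 8.33% of all genes tested. At 500 nM it was called positive for 38 and negative for 6, against 28.2% and 18.1%. HIST2H3D, an H3 gene, had a difference of 1.05 ± 0.14 (log2 with SE, adjusted p = 6.8e-07), and fell in every 500 nM library of both lines. HIST1H2BH had 2.42 ± 0.49 (adjusted p = 0.000216), with 4 to 17 counts a library in OCI-Ly1. HIST1H1T had 2.03 ± 0.76 (adjusted p = 0.0316), with 1 to 3 counts a library in OCI-Ly1 with DMSO, so that its size depends on the prior count.

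HIST4H4 had a difference of -1.80 ± 0.11 (adjusted p = 1.64e-12), with lower values in OCI-Ly1 at 500 nM and overlapping groups in TMD8. HIST1H2BD had -0.44 ± 0.08 (adjusted p = 5.68e-05) and HIST1H2AC -0.36 ± 0.08 (adjusted p = 0.000589), and on log2(TPM + 1) both differences were positive and not called.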

How the results depend on the processing

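The counts of histone genes called lower at 500 nM stayed at 61 in OCI-Ly1 under every alternative run and between 58 and 60 in TMD8. The OCI-Ly1 count called lower at 150 nM did not hold: 1 with RLE size factors, 1 with library size alone, 12 with no filter on low counts, 11 with DESeq2, 0 on log2(TPM + 1) or log2(TPM + 0.1) whether or not genes of low value were kept, and 0 with only the 6 libraries of the 2 groups. It ranged from 0 to 14 when each library was left out. The count called higher in TMD8 at 150 nM was 1 on log2(TPM + 1), and 1 to 3 leaving out each library (1 without 150 nM replicate 2). At 500 nM it was 6 with no filter, 1 with DESeq2, 1 with the 6 libraries alone, and 1 to 3 leaving out each library (1 without DMSO replicate 3, 500 nM replicate 1 or 500 nM replicate 2). From 150 to 500 nM in TMD8 it was 3 with no filter, 0 on each log2 TPM scale, and 1 to 2 leaving out each library. For the line difference at 150 nM, 1 was negative with library size alone, no filter, DESeq2 or log2(TPM + 1) of all genes above 0, and 0 to 1 leaving out each library. At 500 nM the negative count was 2 on log2(TPM + 0.1), and 3 to 6 leaving out each library, while the positive count was 29 to 40. Genes lower in OCI-Ly1 with DMSO numbered 6 on log2(TPM + 1), 7 on log2(TPM + 0.1) and 6 with all genes above 0. With the replicate number as a block, the replicate block gave 11 lower at 150 nM in OCI-Ly1, 1 negative line difference at 150 nM, and 42 positive and 7 negative at 500 nM, and changed no other count of calls. Same-numbered libraries correlated above 0.1 in 2 of 9 pairs in each line (-0.0462 to 0.146 in OCI-Ly1, -0.0545 to 0.141 in TMD8). Differently numbered libraries did so in 0 of 18 pairs in OCI-Ly1 and 1 of 18 in TMD8. In both lines the same-numbered pairs above 0.1 were DMSO with 150 nM, for replicates 1 and 3. Whether the numbers pair the libraries cannot be told from these values.

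On summed TPM the log2 ratio at 500 nM was -1.25 over all genes in OCI-Ly1, and -1.39, -1.17, -1.21, -1.27 and -1.28 for H1, H2A, H2B, H3 and H4. In TMD8 it was -2.12 over all, and -2.03, -1.98, -2.08, -2.30 and -2.17 by class, with H2B at -0.996 at 150 nM. With library size alone it was -1.25 for H2B in OCI-Ly1, and in TMD8 -1.60 over all, -1.48 for H2A, -1.80 for H3 and -1.70 for H4. Without the highest gene of the class it was -1.46 for H2B in OCI-Ly1, and -1.78 for H1 and -1.74 for H4 in TMD8. As shares of TPM in place of counts, the 500 nM minus DMSO change in percentage points was -1.17 for H1 and 1.24 for H2A in OCI-Ly1, and 2.22 for H2A and 0.673 for H2B in TMD8.

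HIST4H4 in TMD8 turned to -0.33 on log2(TPM + 1) and -0.34 on log2(TPM + 0.1). On these 2 scales the line difference at 500 nM turned to 0.42 and 0.42 for HIST2H2AA3 and HIST2H2AA4, 0.37 and 0.38 for HIST1H4D, 0.11 and 0.11 for HIST1H2BD, and 0.11 and 0.11 for HIST1H2AC. HIST2H2BE turned to 0.38 on log2(TPM + 0.1) and HIST3H2A to -0.72 on log2(TPM + 1). The cause was not tested. Over named genes, leaving out a library kept 1836 of 1926 calls and directions, with 69 losing and 21 gaining a call. For genes under the filter a difference was mostly not detectable at this depth.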

Other observations

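Some histone genes that did not pass the low-count filter had low counts, and are given as counts with no test. HIST3H3, which encodes an H3 known from testis, had 0, 1 and 1 counts in TMD8 with DMSO, 1, 0 and 1 at 150 nM, then 10, 9 and 1 at 500 nM. Scaled for depth, the summed counts at 500 nM were 14.0 times those with DMSO (95% exact interval 3.39 to 123, counting error only). In OCI-Ly1 HIST3H3 had 0, 5 and 0 counts with DMSO, 0, 0 and 0 at 150 nM, then 3, 0 and 5 at 500 nM. HIST1H4G, an H4 gene, had 0, 0 and 1 counts in TMD8 with DMSO, 3, 3 and 7 at 150 nM, then 2, 5 and 4 at 500 nM, and 0 or 1 in every OCI-Ly1 library. HIST1H2AA, an H2A gene known from testis, had 0, 0 and 0 counts in TMD8 with DMSO and 2, 1 and 5 at 500 nM. The 500 nM libraries of TMD8 were the shallowest of that line on average, and these genes were picked after their values were seen.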
